A study of Macaca mulatta with 25 samples.

Results

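The libraries described here are rhesus macaque blastocysts at the upper and lower end of a score for complex I, the first enzyme of the mitochondrial respiratory chain. RNA sequencing counts were scaled to CPM, the count divided by the library total and multiplied by 1000000. Of the 25 libraries of the series, 21 held under 20 CPM of CGA, the hormone subunit made by syncytiotrophoblast, and these were eligible. The score of a library was the mean log2(CPM + 1) of 28 entries whose symbol is NDUFA, NDUFB or NDUFS with a number. The 7 libraries with the highest and the 7 with the lowest score were compared, which makes 14 of 25 libraries. The members were thus chosen by measured values, the CGA and complex I levels of these same libraries, so the 2 sets differ by choice, and their differences are given as a description with no test.

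All embryos came from eggs of female macaques treated for 5 to 6 years from 2.5 years of age and were cultured for up to 8 days, with the zona removed before freezing. Controls (C, 5 libraries) had cholesterol implants and chow with 15% fat, and T females (10 libraries) had the same chow and testosterone implants meant to keep blood testosterone at up to 3 to 5 times the normal level. WSD females (8 libraries) received a Western-style diet with 36% fat, and TWSD females (2 libraries) received this diet and testosterone. Of 10 females per group, 10 C, 7 T, 6 WSD and 3 TWSD females could be stimulated for egg collection, the others having health problems such as endometriosis, so some T and WSD libraries must share a mother. The labels do not say which mother, father or batch a library had, nor whether it holds 1 embryo. The p-values therefore measure the spread between libraries alone.

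The respiratory chain passes electrons from NADH and succinate to oxygen through complexes I to IV, and ATP synthase uses the proton gradient this builds. Most subunits are encoded in the nucleus, translated on cytosolic ribosomes and imported, while the mitochondrion's own ribosomes make a small set of core subunits. The blastocyst consumes more oxygen than the cleavage-stage embryo and holds 3 cell populations, the outer trophectoderm, the epiblast and the primitive endoderm.

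The score ran from 6.20 to 6.87 in the high set, from 5.92 to 6.14 in the 7 libraries between, and from 5.46 to 5.79 in the low set. C 2, the lowest high library at 6.20, lay next to WSD 4 at 6.14, and WSD 6 at 5.92 lay next to the highest low libraries, WSD 8 and WSD 3, both at 5.79. The score thus fell along a gradient with no wide gap at either border. The CGA limit fell in a wide gap, between 4.35 CPM in T 11 and 755 CPM in C 12. The 4 libraries above it (C 8, C 11, C 12 and T 1) had scores of 4.86 to 5.66, at the level of the low set or under it.

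By treatment, the high set held 2 C, 4 T, 1 TWSD and 0 WSD libraries, and the low set held 0 C, 3 T, 1 TWSD and 3 WSD libraries. The 5 other WSD libraries were between. The 3 other C libraries were above the CGA limit. With no WSD library in the high set and no C library in the low set, set and treatment cannot be told apart for these treatments. T was the one treatment with more than 1 library in each set, and differences within T are given beside the main ones.

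**Figure D1:**
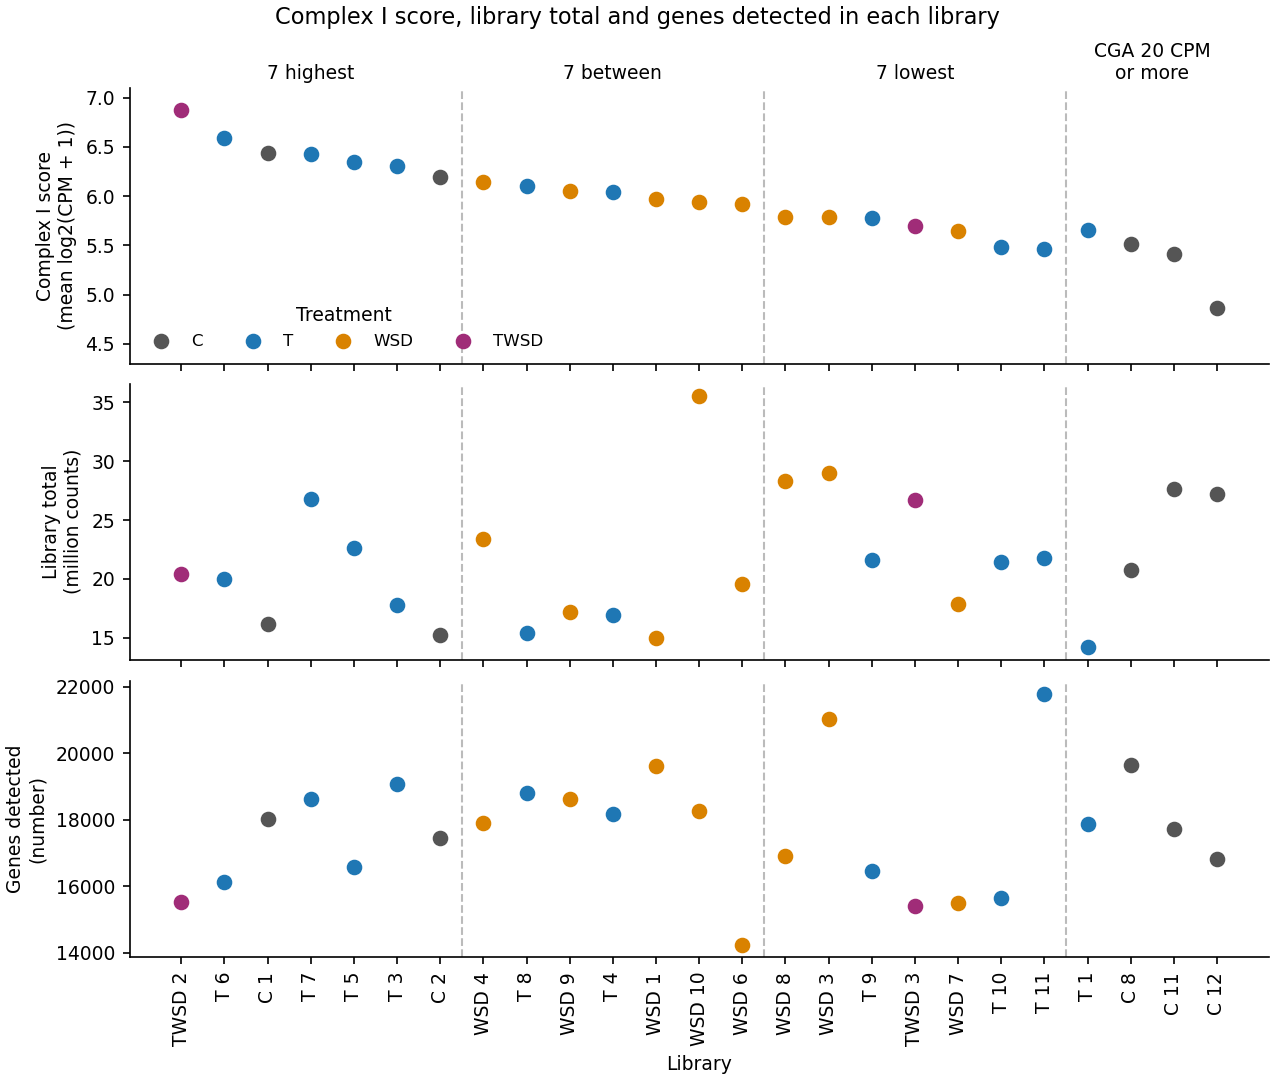
Complex I score in mean log2(CPM + 1), library total in units of 1000000 counts and number of genes with at least 1 count, for each of the 25 libraries ordered by score within 4 sets, colours for treatment. The score falls from 6.87 to 5.46 over the 21 eligible libraries, while totals and genes detected overlap between the 7 highest and the 7 lowest.

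Library total and genes detected overlapped between the sets. Totals ran from 15272016 to 26753850 counts in the high set (median 20026691) and from 17844444 to 28973971 in the low set (median 21816045). Between 15543 and 19072 genes had a count in the high set (median 17448), against 15419 to 21793 in the low set (median 16462). With every library thinned to 14219054 counts the ranges were 14942 to 18734 and 14843 to 20662. Genes with at least 10 counts numbered 9491 to 13759 in the high set and 12430 to 14958 in the low set, and TWSD 2 was the library at 9491. The mean correlation of TWSD 2 with the other 20 eligible libraries was 0.811, against 0.880 to 0.925 for the rest, so list values without it are given below. RNA integrity, collection day and transcript length were not analysed here, and their part in the differences was not tested.

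Of 28 score entries, 26 passed the filter of at least 1 CPM in at least 5 of the 21 libraries, and NDUFA2 and NDUFA4L2 did not. Of these 26, 12 separated the sets, meaning that all 7 libraries of one set were above all 7 of the other. This is a property of the choice. NDUFB1, an accessory subunit of the membrane arm, ran from 25 to 39.1 CPM (median 27.5) in the high set and from 5.87 to 16.3 CPM (median 9.58) in the low set. NDUFB2, also of the membrane arm, ran from 95.2 to 264 CPM (median 123) against 31.2 to 85.0 CPM (median 46.0). The smallest differences were those of NDUFS1, the core subunit that carries iron-sulfur clusters, at 0.07, and of the accessory subunit NDUFA5, at -0.13 on the log2(CPM + 1) scale. NDUFS1 ran from 174 to 267 CPM in the high set and from 168 to 256 CPM in the low set, so complex I genes did not differ as a block. NDUFB5, the gene used as the marker of the high libraries, had 163 to 386 CPM (median 194) against 111 to 211 CPM (median 160). Its sets overlapped, with T 10 of the low set at 211 CPM, and TWSD 2 at 386 CPM stood well above the other libraries of the high set. The 7 libraries between had a median of 142 CPM, below that of the low set, so NDUFB5 did not follow the score throughout.

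Outside the score, 198 of 13258 genes were higher in all 7 high libraries than in all 7 low libraries (1.49%), and 15 were lower (0.113%). The median difference over all 13258 genes was -0.11, and 5432 of them had the higher mean in the high set. Nothing is read from these shares, since the score that chose the sets comes from the same libraries.

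Respiratory chain subunits outside the score, of which 4 belong to complex I and the others to complexes II to IV, cytochrome c and ATP synthase, were counted next, 38 of 40 having passed the filter. Of these, 14 separated the sets, all with the high set above, and the median difference was 0.65. The complexes were unequal, and within a complex so were the subunits.

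Among the 4 complex I subunits outside the score, NDUFC2 of the membrane arm ran from 79.4 to 130 CPM in the high set and from 46.0 to 67.8 CPM in the low set, without overlap. NDUFV1, the core subunit that binds NADH, ran from 252 to 450 CPM against 281 to 418 CPM, a difference of -0.01. Splitting the complex I genes that passed, without NDUFA4, which is now assigned to complex IV, into core and accessory subunits, a split made after the values were seen, gave a median difference of 0.53 for 7 core subunits and of 0.97 for 22 accessory ones. The ranges of the 2 kinds overlapped, at -0.01 to 0.77 and -0.13 to 1.56.

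Complex II, which oxidises succinate and is also an enzyme of the citric acid cycle, had 0 of 4 genes that separated the sets and a median difference of 0.15. SDHA, its flavin subunit, ran from 135 to 510 CPM (median 273) in the high set and from 201 to 322 CPM (median 287) in the low set. SDHB, its iron-sulfur subunit, ran from 148 to 315 CPM against 118 to 171 CPM, and the sets overlapped too.

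In complex III with cytochrome c, 2 of 6 genes separated the sets and the median difference was 0.25. UQCRQ, a small subunit, had 73.0 to 224 CPM (median 132) in the high set and 30.5 to 57.6 CPM (median 46.4) in the low set, a difference of 1.62 (SD 0.49 in the high and 0.32 in the low set, n = 7 each). UQCRB, another small subunit, had 29.3 to 51.6 CPM against 17.9 to 28.3 CPM. The large core protein UQCRC1 had 1053 to 1775 CPM against 1103 to 1308 CPM, and here the sets overlapped with medians of 1166 and 1185 CPM.

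Complex IV, cytochrome c oxidase, had the highest median difference of the complexes at 1.13, and 5 of its 9 genes separated the sets. COX8A, a small membrane subunit, ran from 53.3 to 89.7 CPM (median 74.5) in the high set and from 23.5 to 42.2 CPM (median 27.9) in the low set. COX6A1 ran from 128 to 309 CPM against 67.8 to 108 CPM, and COX6C from 51.2 to 82.2 CPM against 20.4 to 36.9 CPM. COX4I1, the largest nuclear-encoded subunit, ran from 361 to 536 CPM (median 440) against 217 to 267 CPM (median 242). The smallest difference in this complex was 0.68, for COX5A, whose sets overlapped. The mean of the 9 genes was 6.57 to 7.07 in the high set and 5.30 to 6.05 in the low set on the log2(CPM + 1) scale.

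In ATP synthase, 6 of 15 genes separated the sets and the median difference was 0.63. ATP5ME, a small subunit of the membrane part, had the largest difference of the named genes that separated the sets with the high set above, 1.87 (SD 0.45 in each set), with 33.0 to 68.5 CPM (median 36.1) against 6.05 to 16.9 CPM (median 12.7). ATP5MJ, also small and in the membrane, had 93.6 to 127 CPM (median 111) against 30.7 to 49.2 CPM (median 40.0). The alpha and beta subunits, which form the catalytic head, did not separate the sets. ATP5F1A, the alpha subunit, had 2417 to 3473 CPM against 2629 to 3226 CPM, and ATP5F1B, the beta subunit, had 378 to 1523 CPM (median 1225) against 862 to 1273 CPM (median 1084). Both pairs of sets overlapped, with differences of 0.06 and 0.02. The ATP5F1B difference drew on TWSD 2, the library at 378 CPM. Within T alone the differences were -0.01 for ATP5F1A and 0.21 for ATP5F1B, and there too the sets overlapped. Split after the values were seen, the 5 genes ATP5F1A to ATP5F1E, which are not all of the head, had a median difference of 0.34. The 10 other genes had one of 0.93.

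**Figure D2:**
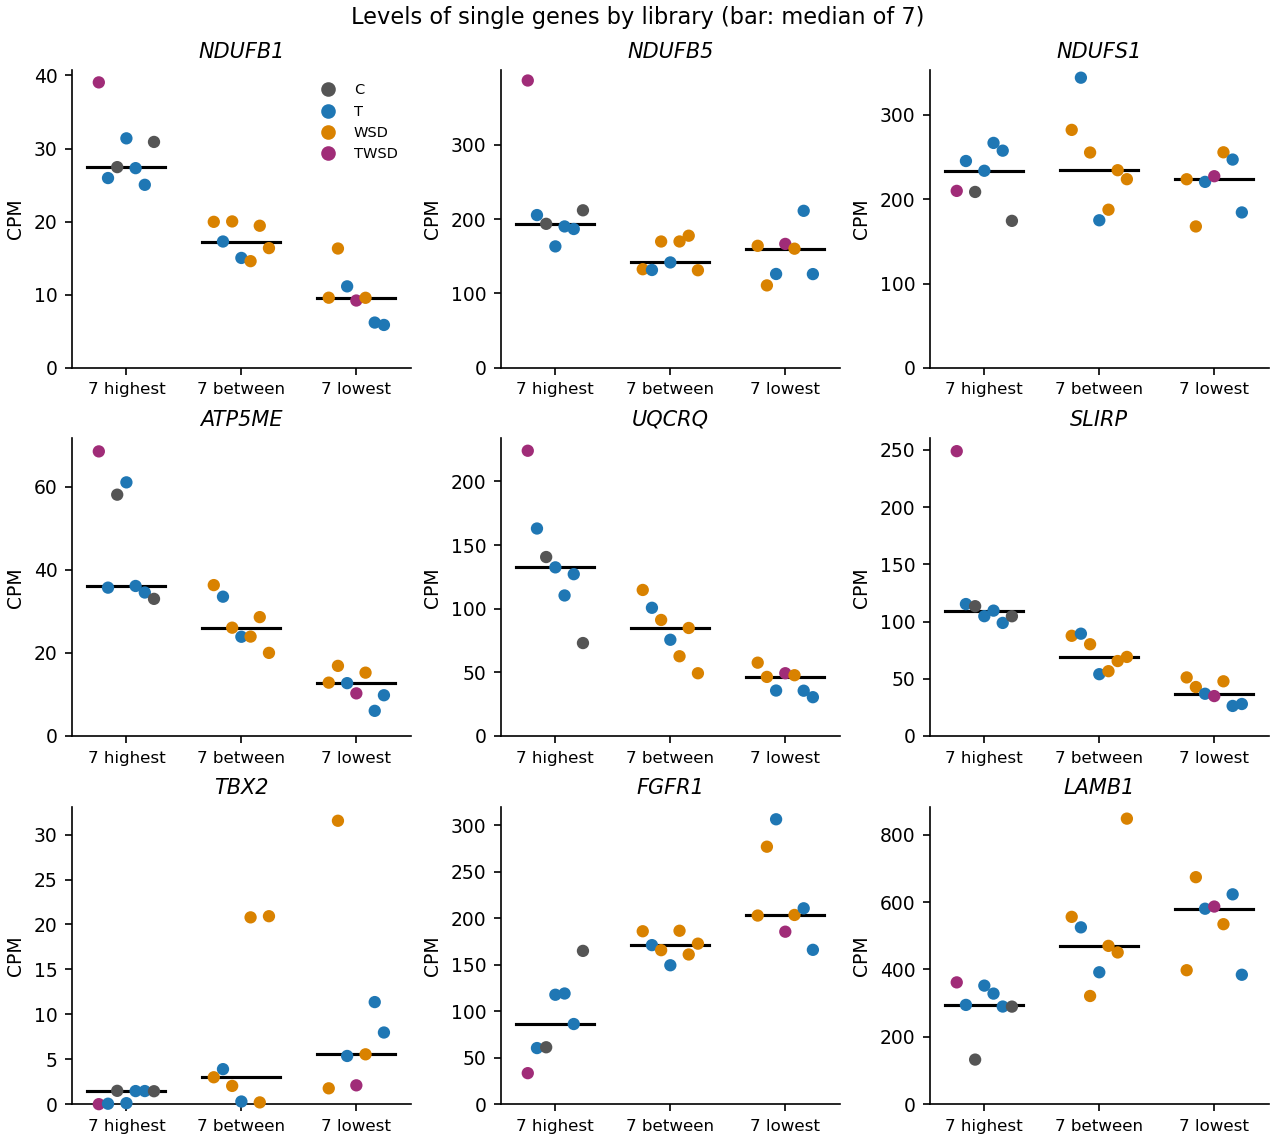
CPM of 9 genes in each of the 7 highest, 7 between and 7 lowest libraries by complex I score, with treatment as colour and the median of 7 as a bar, on axes that start at 0. NDUFB1, ATP5ME, UQCRQ and SLIRP separate the highest from the lowest with the high set above, TBX2, FGFR1 and LAMB1 with the high set below, and NDUFS1 and NDUFB5 overlap.

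Factors that build complex I gave 3 of 16 genes that separated the sets, and all 16 had the higher mean in the high set (median 0.40). NDUFAF3, needed early in assembly, ran from 68.3 to 118 CPM (median 94.5) in the high set and from 22.4 to 52.3 CPM (median 32.3) in the low set. NDUFAF8, another assembly factor, ran from 9.60 to 26.7 CPM against 2.7 to 7.3 CPM. DMAC1, a factor of the distal membrane arm that was in no list, ran from 71.1 to 96.7 CPM (median 92.9) against 20.7 to 46.5 CPM (median 31.6).

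Genes of the mitochondrial ribosome had 21 of 66 with all 7 high libraries above (31.8%), and 63 had the higher mean (median 0.54). MRPL52, of its large subunit, ran from 23.9 to 46.2 CPM against 7.56 to 18.2 CPM, and MRPS18C, of its small subunit, from 33.7 to 70.3 CPM against 11.7 to 23 CPM. MRPS27 had the lowest difference, -0.24. As a share of all counts, mitochondrial ribosomal protein genes took 0.991 to 1.47% in the high set and 0.629 to 0.986% in the low set.

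Import into mitochondria gave 3 of 19 genes that separated the sets (median 0.51). TOMM7, which steadies the outer-membrane import pore, ran from 22.2 to 35.5 CPM (median 27.8) in the high set and from 4.94 to 15.3 CPM (median 9.32) in the low set. ROMO1, an inner-membrane protein linked to import and to reactive oxygen, was in no list and ran from 39.5 to 72.2 CPM against 10.8 to 24.3 CPM.

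For upkeep of mitochondrial DNA and regulators of biogenesis, 2 of 21 genes separated the sets and the median was 0.10. Both bind nucleic acid inside the organelle. SLIRP, which stabilises mitochondrial mRNA, ran from 98.8 to 249 CPM (median 110) against 26.3 to 51.2 CPM (median 36.9), and SSBP1, the single-strand DNA binding protein, from 164 to 375 CPM against 86.4 to 138 CPM. Regulators overlapped: TFAM, which packages mitochondrial DNA and helps start its transcription, had 296 to 719 CPM (median 497) against 197 to 462 CPM (median 377). NRF1, a transcription factor for respiratory genes, had 23.8 to 68.6 CPM against 24 to 48 CPM, a difference of -0.01. PPRC1, a coactivator, had medians of 128 and 170 CPM, and its difference of -1.09 drew on 1 library at 1.77 CPM.

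Other energy pathways gave no gene that separated the sets: 0 of 21 for the citric acid cycle (median 0.18), 0 of 18 for glycolysis (median -0.15) and 0 of 16 for fatty acid oxidation (median 0.29). Over all 13258 genes outside the score, 1.49% were higher and 0.113% lower without overlap. A count of 0 in so short a list, here or elsewhere, is near these shares and does not mark the list. With 1 library left out these medians ran from 0.06 (without WSD 3) to 0.27 (without C 2), from -0.25 (without T 3) to -0.03 (without T 11) and from 0.17 (without TWSD 2) to 0.37 (without T 5). The same held for 0 of 9 genes of mitochondrial fusion and fission (median -0.25), 0 of 18 of peroxide and superoxide defence (median -0.03) and 0 of 11 mitochondrial chaperones and proteases (median 0.25). SLC2A1, the main glucose transporter of the embryo, ran from 48.7 to 720 CPM (median 360) in the high set and from 376 to 881 CPM (median 735) in the low set. PC, the enzyme that refills the cycle with oxaloacetate, ran from 0.0981 to 15.2 CPM against 12.3 to 30.8 CPM. Both genes overlapped between sets, with the high libraries mostly below.

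Cytosolic ribosomal protein genes were higher in 18 of 75 (24%), with a median of 0.68 and 68 higher means. RPS21, of the small subunit, ran from 44.7 to 85.4 CPM (median 77.9) against 13.4 to 34 CPM (median 21.8), and RPL38, of the large subunit, from 39.1 to 79.6 CPM against 12.1 to 28.0 CPM. Near-identical copies of these genes exist in the genome and how reads were split among them is not known, so single values are uncertain. TWSD 2 had the lowest list mean of the high set at 5.99, against a low-set range of 5.61 to 6.11, and without it 35 of 75 genes separated the sets. Of the proteasome core, 2 of 14 did (8 without T 3, 5 without T 11 and 3 without WSD 8), and PSMB4, a beta subunit, ran from 107 to 250 CPM against 64.3 to 96.4 CPM.

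**Figure D3:**
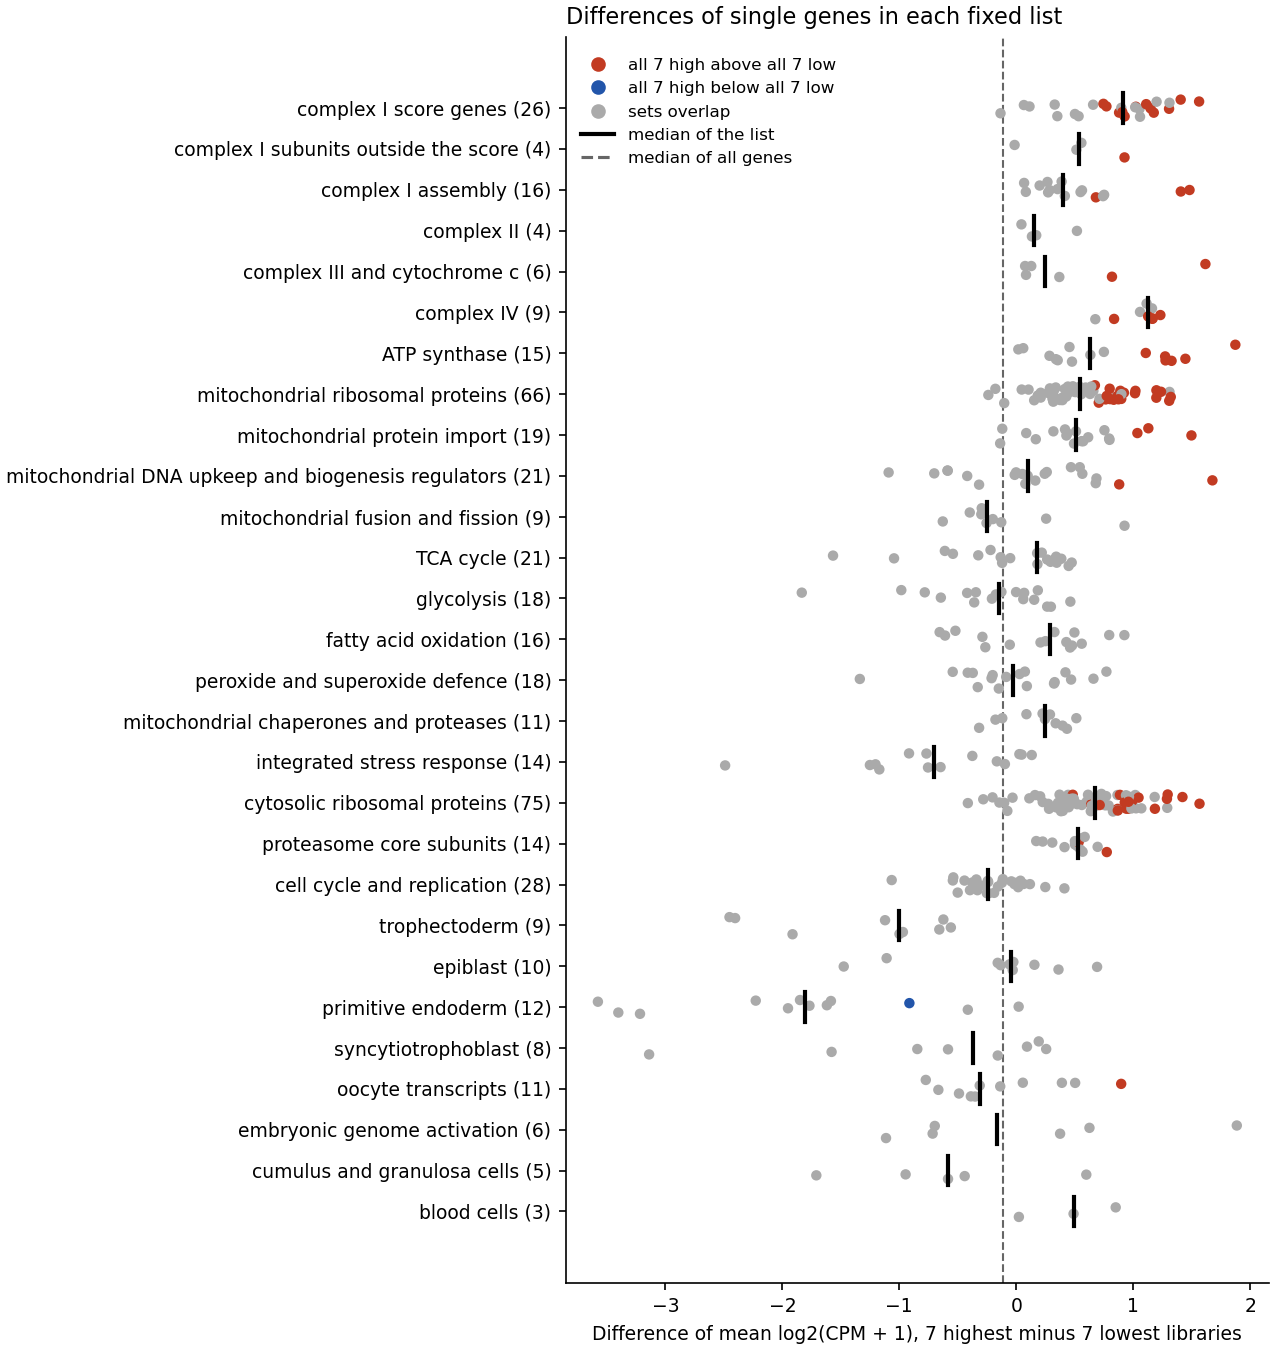
Difference of mean log2(CPM + 1) between the 7 highest and 7 lowest libraries for each gene of 28 lists (genes that passed the filter in brackets), red and blue where the sets do not overlap, with the list median as a bar and the median of all genes, -0.11, as a dashed line. Complex IV lies at a median of 1.13, trophectoderm at -1.0 and primitive endoderm at -1.81, where 1 of 12 genes separates the sets.

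Markers of the outer and the endoderm lineage had lower means in the high set. In bulk samples, fewer cells of a type and less RNA per cell cannot be told apart. All 9 trophectoderm genes had the lower mean in the high set (median -1.0), yet 0 separated the sets. Over all 13258 genes outside the score, 5432 had the higher mean there, so a lower mean was common. GATA2, a transcription factor of trophoblast, ran from 21.2 to 631 CPM (median 164) in the high set and from 284 to 882 CPM (median 584) in the low set. KRT19, a keratin of the outer epithelium, ran from 10.9 to 1878 CPM (median 188) against 147 to 2398 CPM (median 936), and CDX2, the trophectoderm factor, from 22.4 to 264 CPM (median 79.1) against 95.5 to 307 CPM (median 178).

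Of 12 primitive endoderm genes, 11 had the lower mean in the high set (median -1.81) and 1, LAMB1, separated the sets. LAMB1, a laminin chain of the basement membrane, ran from 132 to 361 CPM (median 295) in the high set and from 384 to 674 CPM (median 580) in the low set. COL4A2, a collagen IV chain of the same membrane, ran from 0.866 to 163 CPM (median 14.4) against 72.7 to 537 CPM (median 223), with the largest difference of the list at -3.58 (SD 2.78 and 0.86). GATA4, an endoderm transcription factor, ran from 0.124 to 69.2 CPM (median 14.6) against 11 to 87.8 CPM (median 51.0). GATA6, which acts before GATA4, had 37.0 to 556 CPM (median 337) against 137 to 607 CPM (median 204), a difference of 0.02. The high set was the more spread: its list means ran from 2.61 (TWSD 2) and 2.73 (C 1) to 6.42 (C 2), against 5.06 to 7.19 in the low set.

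Epiblast genes had a median difference of -0.04, and 0 of 10 separated the sets. Of the 10, 3 had the higher mean in the high set, and the differences ran from -1.47 to 0.69. POU5F1, the pluripotency factor also known as OCT4, ran from 338 to 1125 CPM (median 700) in the high set and from 359 to 682 CPM (median 462) in the low set. NANOG, another pluripotency factor, ran from 61.7 to 136 CPM against 71.2 to 130 CPM. The sets overlapped for both.

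**Figure D4:**
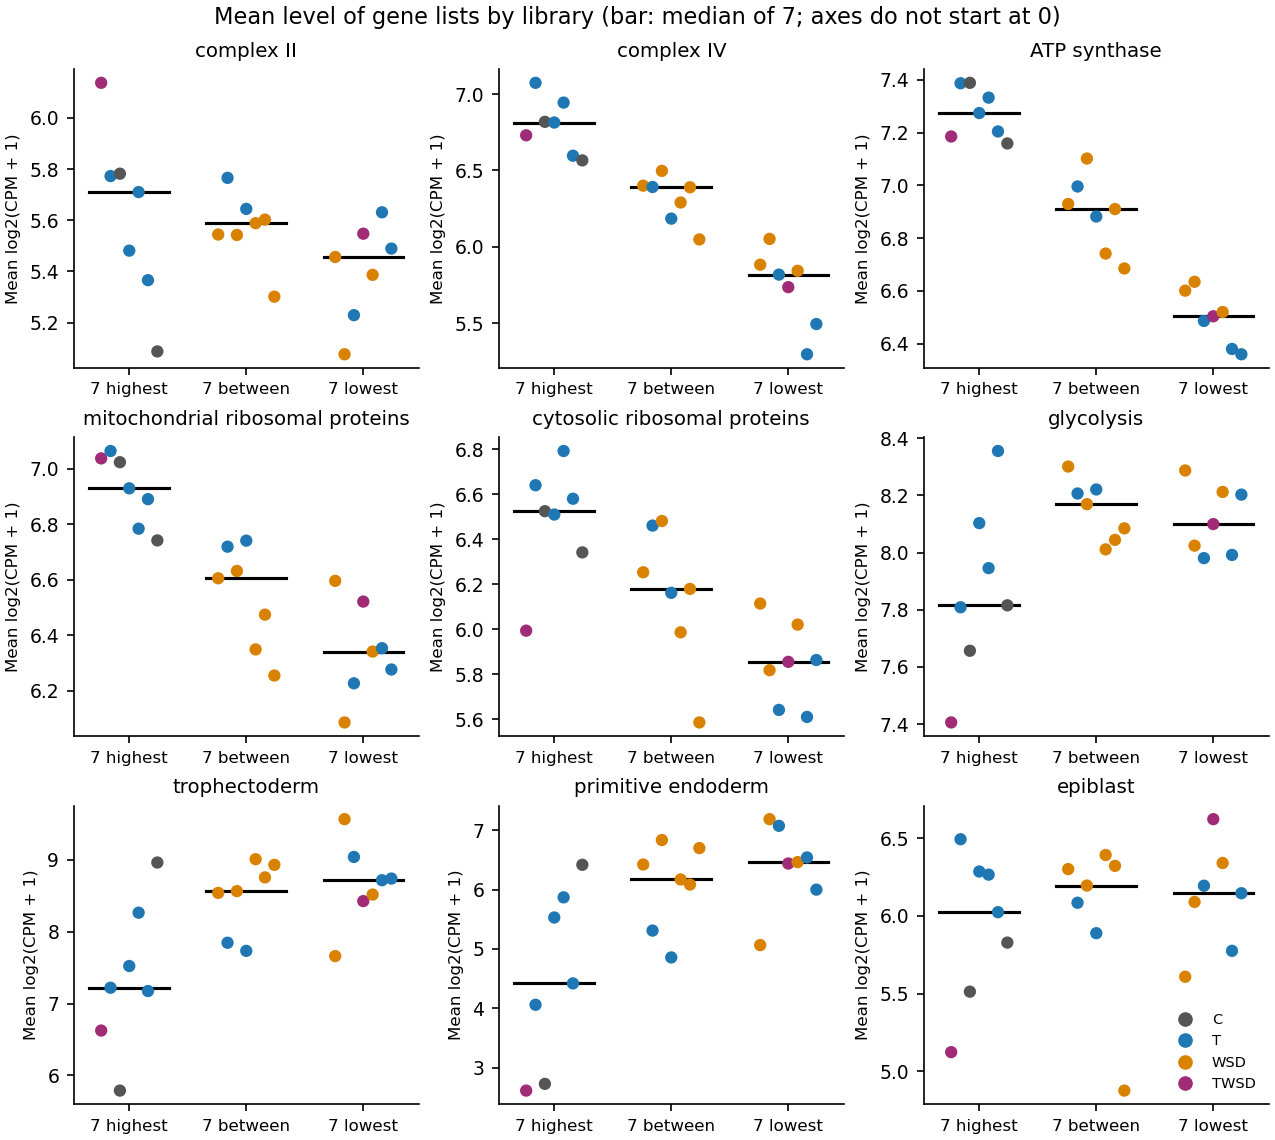
Mean log2(CPM + 1) of 9 gene lists in each of the 7 highest, 7 between and 7 lowest libraries, with treatment as colour and the median of 7 as a bar, on axes that do not start at 0. Complex IV, ATP synthase and mitochondrial ribosomal proteins separate the highest from the lowest, complex II and epiblast overlap, and the primitive endoderm means of the 7 highest spread from 2.61 to 6.42.

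Cell cycle and replication genes had 0 of 28 that separated the sets (median -0.24). The integrated stress response had 0 of 14 and a median of -0.70, and the range of its list mean was 3.35 to 4.73 in the high set and 4.08 to 5.60 in the low set. PHGDH, the first enzyme of serine synthesis and a target of that response, ran from 0.0618 to 6.84 CPM (median 2.75) against 3.03 to 57.0 CPM (median 17.7). DDIT3, the stress factor also called CHOP, had 11.2 to 43.7 CPM against 10.3 to 37.2 CPM, and ATF4, the factor that drives the response, 126 to 357 CPM against 133 to 278 CPM. These 2 regulators thus overlapped with differences of 0.05 and 0.03. Of the 14 genes, 3 had the higher mean in the high set, these 2 among them, and the highest difference was 0.13.

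Of the oocyte transcripts, 1 of 11 separated the sets with a list median of -0.31. This was OOEP, a protein of the maternal complex beneath the egg membrane, at 174 to 293 CPM (median 201) in the high set and 74.4 to 155 CPM (median 122) in the low set. Of genes switched on at embryonic genome activation, 0 of 6 did (median -0.16), and DPRX, a homeobox factor of that stage, ran from 18.3 to 241 CPM (median 96.9) against 12.9 to 100 CPM (median 17.8). Syncytiotrophoblast genes gave 0 of 8 (median -0.37).

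Markers of cells that could be carried along were few: 5 of 13 cumulus and granulosa genes, 3 of 6 blood genes and 0 of 7 sperm genes passed the filter, and 0 separated the sets. Their list means were 1.39 to 2.19 against 1.29 to 3.25 for cumulus and granulosa cells, and 0.44 to 2.86 against 1.04 to 2.34 for blood. Y-linked genes had means of 0.03 to 5.80 in the high set and 0.24 to 6.00 in the low set, so libraries with and without them were in both.

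Of the 12 named genes with the high set above, 5 were in no list, and DMAC1 and ROMO1 of these are described with their pathways. HYPK, a partner of the enzyme that acetylates new proteins, ran from 83.3 to 269 CPM (median 112) against 27.8 to 50.2 CPM (median 40.2). COX8C, an isoform of the COX8 subunit, ran from 13.8 to 46.8 CPM against 4.00 to 13.3 CPM, and BOLA3, which helps deliver iron-sulfur clusters, from 38.0 to 134 CPM against 13.7 to 35.0 CPM. These 3 had differences of 1.57, 1.52 and 1.47.

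Of the 15 genes that were lower, 12 are named here. FGFR1, a receptor for fibroblast growth factors, ran from 33.4 to 165 CPM (median 86.2) in the high set and from 166 to 307 CPM (median 204) in the low set, so that the sets touched within 1 CPM. MYH10, the heavy chain of a non-muscle myosin, ran from 10.3 to 37.0 CPM (median 27.0) against 42.1 to 86.1 CPM (median 66.5), and PXN, the focal adhesion protein paxillin, from 33.6 to 91.4 CPM against 93.1 to 150 CPM. IGF2BP1, which binds growth-related mRNAs, ran from 160 to 290 CPM against 334 to 500 CPM.

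In 4 of the named lower genes at least 1 high library was at 0.393 CPM or less. TBX2, a T-box transcription factor, ran from 0 to 1.48 CPM against 1.76 to 31.5 CPM (median 5.55), and the uroplakin-like UPK3BL2 from 0 to 0.561 CPM against 0.776 to 65.3 CPM (median 5.56). NOS1AP, an adaptor of a nitric oxide synthase, ran from 0 to 9.57 CPM against 10.8 to 30.9 CPM, and LPIN2, a phosphatidate phosphatase, from 0.393 to 14.1 CPM against 14.7 to 21.9 CPM. The other named lower genes were TMEM131L (-1.28), TUBGCP3 (-0.94), of the complex that starts microtubules, and GANAB (-0.73), a glucosidase of the endoplasmic reticulum.

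Within T alone, 4 high libraries (T 3, T 5, T 6 and T 7) were set against 3 low ones (T 9, T 10 and T 11). The list medians were 1.35 for complex IV, 0.81 for ATP synthase, 0.43 for complex III, 0.09 for complex II, 0.62 for the mitochondrial and 0.96 for the cytosolic ribosome. Trophectoderm and primitive endoderm were at -1.04 and -1.47, and epiblast was at 0.40. Since fewer libraries separate more easily, 1092 genes (8.24% of 13258) were above and 792 (5.97%) below without overlap there. Without TWSD 2, the medians were 1.15 for complex IV, 0.66 for ATP synthase, -0.92 for trophectoderm and -1.47 for primitive endoderm. Without it 277 genes (2.09%) were above and 22 (0.166%) below without overlap.

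Treatment groups come from the labels and not from the score, so they can be tested. The score over all libraries was 4.86 to 6.44 in C (median 5.51), 5.46 to 6.59 in T (median 6.07), 5.64 to 6.14 in WSD (median 5.93), and 5.70 and 6.87 in TWSD, all overlapping. Single genes were tested with the quasi-likelihood F-test of edgeR, with Benjamini-Hochberg adjusted p-values over 13934 genes and a threshold of 0.05. Levels in the treatment comparisons are TMM-scaled CPM, so they differ from the unscaled CPM of the sections on the 2 sets. The comparisons of T, WSD and TWSD with controls share the 5 C libraries and are not independent. Over all genes tested, 4.11% were called in T against C, 4.07% in WSD against C, 1.2% in TWSD against C and 0% in T against WSD. These were 573, 567, 167 and 0 genes, and the calls rested on few controls: without C 12 they were 40 in T and 51 in WSD, without C 1 they were 1287 and 1110, and in the 21 libraries below the CGA limit 0 and 1. In TWSD they ran from 0 without TWSD 2 to 2786 without TWSD 3.

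None of the 26 score genes and none of the 38 other subunits was called by edgeR in any of the 4 comparisons. At an unadjusted p under 0.05 there were 2 and 6 in T against C, 3 and 3 in WSD against C, 12 and 10 in TWSD against C, and 0 and 0 in T against WSD. DESeq2 called 4 score genes and 4 other subunits in TWSD against C and 0 in the other 3. A p that misses the threshold does not show that the groups were alike, and the score alone ran from 4.86 to 6.44 within the 5 controls.

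The score gene with the smallest p was NDUFS1 in both single treatments. It stood at 221 ± 54.9 TMM-scaled CPM in T (SD, n = 10) and 142 ± 46.2 in C (n = 5), a log2 change of 0.64 ± 0.22 (SE) with an edgeR adjusted p of 0.106. In WSD it was at 224 ± 38.9 TMM-scaled CPM (n = 8), a change of 0.66 ± 0.23 with an edgeR adjusted p of 0.103. NDUFA6, an accessory subunit, came next with changes of -0.90 in T and -0.89 in WSD (edgeR adjusted p of 0.196 and 0.227). These 2 genes thus pointed opposite ways, but the NDUFA6 level in C (84.5 ± 81.3 TMM-scaled CPM, n = 5) drew on C 12. Before TMM scaling C 12 had 160 CPM of NDUFA6, against 32.6 to 75.4 CPM in the other controls. The NDUFS1 level in C drew on the controls above the CGA limit. Before TMM scaling these had 115 (C 8), 76.1 (C 11) and 98.0 CPM (C 12) of NDUFS1. C 1 and C 2, below the limit, had 209 and 174 CPM, and T 1, above it, had 119 CPM.

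In TWSD (n = 2) against C, NDUFA8, an accessory subunit, had a log2 change of 1.89 ± 0.53 (SE) with an edgeR adjusted p of 0.0673. Its level was 332 ± 321 TMM-scaled CPM in TWSD (SD, n = 2) and 89.5 ± 58.8 in C (n = 5). Before TMM scaling TWSD 2 had 426 CPM and TWSD 3 had 109 CPM, against 9.82 to 157 CPM in the controls. The 2 TWSD libraries stood at opposite ends of the score, at 6.87 and 5.70. The median change of the score genes against C was 0.82 with both, -0.24 without TWSD 2 and 1.43 without TWSD 3, and without TWSD 3 edgeR called 11 score genes and 10 other subunits.

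In the 21 libraries below the CGA limit, which leave out T 1 and 3 controls and keep C 1 and C 2 of the high set, the median change of the score genes was -0.22 in T and -0.40 in WSD. Over all 5 controls it was 0.17 and -0.01. For T the direction of the median thus turned when these 4 libraries were left out. Between T and WSD it was 0.15 over all libraries and 0.20 below the limit, and NDUFB9, a membrane-arm subunit, had the smallest p there at 85.9 ± 38.2 TMM-scaled CPM in T (n = 10) against 59.6 ± 17 in WSD (n = 8), with an edgeR adjusted p of 1.0.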

How the data were processed

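The authors deposited raw read counts of 35395 genes in 25 libraries. The submitters' processing notes name FastQC 0.11.8, Trimmomatic 0.39, STAR 2.7.0 and genome build Mmul_10. For the counting tool, annotation and strand setting no statement is given in the sources used here, so overlapping and near-identical genes are uncertain. A symbol table named 24173 of the genes.

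CPM was count over library total times 1000000, and differences are of mean log2(CPM + 1). A gene was kept when 5 or more of the 21 libraries had at least 1 CPM (13284, of which 13258 outside the score). The sets of 7 were compared by overlap, without a test. Treatment groups were tested over 25 libraries with edgeR 4.0.16 (TMM, quasi-likelihood, robust) in R 4.3.3, with DESeq2 1.42.0 as an alternative. Named genes were the 12 largest non-overlapping differences each way at a mean of at least 5 CPM, up to 4 per list, and 7 score genes; further genes were chosen after their values were seen. A gene that the rule names for a treatment comparison is not reported here. The members, the 30 lists and the rules were chosen with earlier results of these data known. Both procedures were tested on simulated data with changes larger than most differences given here. The simulated sets were not chosen by a score, and the treatment simulation had less spread between libraries than the data. These tests therefore do not show how well either procedure works on these data.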

Additional observations from a re-analysis of the deposited data

Results flagged for a closer look

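In total, 10 values stood apart from the other 6 libraries of their set by Dixon's criterion. The 113 groups tested were sets of 7 libraries and the scores within C, T and WSD. Chance alone would give about 5.65 if groups were independent and genes not chosen for separating the sets, and neither holds. All 10 values are in log2(CPM + 1). Of these, 6 were values of TWSD 2 in the high set. SLIRP was at 7.97 (nearest other 6.86), HYPK at 8.08 (6.98), NOS1AP at 0 (2.09) and TUBGCP3 at 3.47 (6.05). The integrated stress response mean of TWSD 2 was 3.35 (nearest 4.18) and its blood cell mean was 0.44 (1.88). C 1 stood low for MYH10 at 3.49 (nearest 4.64) and for LAMB1 at 7.06 (8.18), and C 2 stood low for the mean of complex III and cytochrome c at 7.23 (7.55). In the low set, T 11 stood high for the mean of the oocyte transcripts at 5.36 (3.59). The part of depth, RNA quality or carried-over cells in these values was not tested.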

How the results depend on the processing

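The counts of genes that separated the sets, 198 higher and 15 lower, ran from 202 to 277 and from 18 to 79 with 1 library left out, the highest without TWSD 2 and without WSD 8. The lower count was over 1.5 times 15 without C 1 (23), C 2 (44), T 3 (31), T 5 (42), T 7 (29), T 11 (31), TWSD 3 (26), WSD 3 (24) or WSD 8, where fewer libraries have to be apart. The lower count was 9 with the score as a median and 38 with all 25 libraries eligible, where 3 of 7 low libraries stayed. Taking 5 libraries against 5 gave 427 and 259, and T alone gave 1092 and 792, both with fewer libraries to separate. TMM scaling gave 221 and 14, with 173 and 10 shared. List medians turned sign with all 25 eligible for fusion and fission (0.43), cell cycle (0.78), glycolysis (0.41) and epiblast (1.48). The same held there for oocyte transcripts (0.31) and peroxide and superoxide defence (0.43). With 5 against 5, the blood cell median turned sign (-0.13). The cause of these turns was not tested. For cumulus and granulosa cells the value was 0.60 with a mean of at least 10 CPM. It equals the largest single-gene difference of that list, so the stricter filter left 1 gene, and this is no list median. With 1 library left out the medians of oocyte transcripts (-0.47 to 0.31), embryonic genome activation (-0.44 to 0.14), epiblast (-0.19 to 0.14), peroxide and superoxide defence (-0.11 to 0.08) and Y-linked genes (-0.94 to 0.14) took either sign, and those of complex II (0.09 to 0.25), mitochondrial DNA upkeep (0.04 to 0.22) and fusion and fission (-0.34 to -0.09) moved by over 1.5 times. The peroxide and superoxide median was 0.03 and the epiblast median 0.02 with TMM scaling, and embryonic genome activation was at 0.37 in T alone and 1.26 with a mean of at least 10 CPM. WSD alone gave no value, since no WSD library was in the high set.

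With 1 control or TWSD library left out, calls ran from 0 to 2 score genes and 0 to 4 other subunits in T against C, 0 to 1 and 0 to 2 in WSD against C, and 0 to 11 and 0 to 10 in TWSD against C. The T and WSD calls came without C 1, and those of TWSD without C 1 (7 and 5), C 2 (3 and 1), C 12 (2 and 2) or TWSD 3. DESeq2 called 4 and 4 in TWSD. With a replicate block, 0 score genes and 0 other subunits were called in all 4 comparisons, and of all genes 0 were called, against 573, 567, 167 and 0 without it. Whether replicate numbers pair the samples cannot be settled from so few same-numbered libraries. Their correlations ran from -0.473 to 0.121 over 3 T and C pairs (1 over 0.1, 0 best with its own number). Over 8 T and WSD pairs they ran from -0.340 to 0.306 (3 over 0.1, 2 best with their own). They were -0.311 to -0.110 over 2 WSD and C pairs, and 0.016 for 1 TWSD and C pair. In the shallowest of the 25 libraries, of 14219054 counts, levels near 1 CPM rest on few counts.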
